A study of Arabidopsis thaliana with 6 samples.

Results

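The long intergenic noncoding RNA (lincRNA) units examined here lie on the arms of chromosome 5 of Arabidopsis thaliana. Members were the transcription units whose array name begins with AT5TU and whose start is more than 3 Mb from 12 Mb, taken as the middle of the pericentromeric stretch. They numbered 783 of the 4499 lincRNA units on the array, and 2300 of its 15013 probes. A start stood in the probe annotation for 171 members, and the other 612 were placed by their unit number between the nearest units with a start. A pair of neighbouring left-arm units, AT5TU022670 and AT5TU022680, was set aside by name. No source used here states the genome build of these starts.

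RNA came from inflorescences, with open flowers, buds and some young siliques, of 4-week-old plants in the Col-0 ecotype, grown on half-strength MS medium or in a greenhouse. The 3 rdr2 mutant samples were compared with 3 wild-type samples. The titles and descriptions put the mutant samples in 1 group and name the rdr2-1 allele, while the genotype labels read rdr2-1, rdr2-2 and rdr2-3. Each sample was hybridised to 1 single-colour (Cy3) Agilent array, and the number of arrays limits the precision. Of 22 listed marker loci of flower, leaf, root and pollen, 0 had a probe, so the labelled organ could not be checked by markers.

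RDR2 is an RNA-dependent RNA polymerase. In plants it copies transcripts of RNA polymerase IV into double-stranded RNA, which a Dicer cuts into small interfering RNAs that guide DNA methylation to transposons and other repeats. LincRNAs are transcribed between annotated genes and do not code for proteins; no function is assigned in the files to any member unit.

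RDR2 transcript was lower on the mutant arrays. At its probe with the smallest p, the scaled signal was 61.8, 63.1 and 66.9 in the rdr2 mutant and 401, 385 and 468 in the wild type. Scaled signal is processed spot intensity relative to its array's 75th percentile, which is set at 100 and taken from the 2356 probes that every array measured well above background. The groups did not overlap, and the log2 fold change was -2.70 (SE 0.128; limma, adjusted p = 0.000170). In whole inflorescences, fewer cells with a transcript and less of it per cell cannot be told apart.

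The arrays differed in how many probes stood above background, which bears on dim lincRNAs. Of the 2300 member probes, 245, 243 and 410 were well above background in mutant replicates 1 to 3, and 767, 734 and 393 in wild-type replicates 1 to 3. Mutant replicates 1 and 2 shared a slide, as did wild-type replicates 1 and 2, and each replicate 3 was on a slide of its own. The replicate 3 arrays of both groups were alike, and the gap between the groups lay between the shared slides. Array intensity at the 75th percentile followed the same division among the mutant arrays, at 161, 152 and 283, and was 362, 302 and 361 on the wild-type arrays. No slide held both groups, so slide and genotype cannot be told apart except through the spread between slides of a group. Array correlations over the same 2356 probes were 0.996 on the mutant slide and 0.995 on the wild-type slide, against 0.970 to 0.977 for other arrays of a group and 0.947 to 0.958 between the groups.

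**Figure D1:**
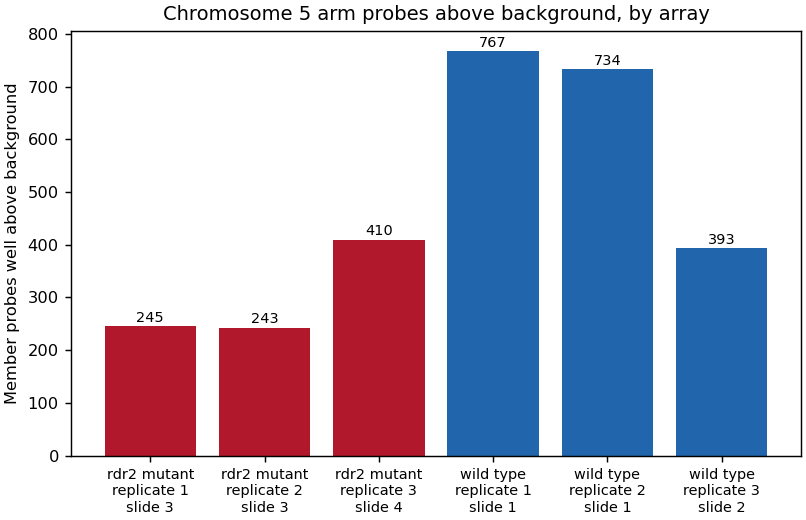
Number of the 2300 chromosome 5 arm probes well above background on each array, with its slide; red bars are rdr2 mutant and blue bars wild type. The replicate 3 arrays, at 410 and 393, were alike, while wild-type replicates 1 and 2, at 767 and 734, stood far above mutant replicates 1 and 2, at 245 and 243.

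Most chromosome 5 arm lincRNA probes were near or below background in inflorescences. Of the 2300, 1364 were well above background on no array, and 215 of the 783 units had no probe above background anywhere. A probe was tested where all 3 arrays of at least 1 group were well above background, which 350 probes of 231 units met. The tested share of units was 29.5%, against 29.3% of the 3506 lincRNA units of chromosomes 1 to 4 and 30.8% of the 208 chromosome 5 units within 3 Mb of 12 Mb. One member probe was above background on all 3 mutant and 0 wild-type arrays, and 30 probes showed the reverse. Over the whole array these counts were 19 and 231.

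A unit or probe was called at an adjusted p under 0.05, with adjustment over all 3341 tested probes. Counted by the probe with the smallest p, 16 of the 231 tested units rose (6.93%) and 23 fell (9.96%), against 5.97% and 11.7% of the 1860 tested transcripts of the array. By probe, 18 of 350 rose (5.14%) and 24 fell (6.86%), against 5.18% and 9.43% of the 3341 tested probes. On chromosomes 1 to 4, 56 and 103 of 1028 lincRNA units rose and fell (5.45% and 10.02%), and 4 and 8 of 64 units within 3 Mb of the 12 Mb point did so. These shares were set side by side without a test of their difference. With AT5TU022670 and AT5TU022680 added back, 18 units rose and 23 fell. The shares called among the members thus lay near those of the array. At an unadjusted p under 0.05, 41 member probes were higher and 82 lower (11.7% and 23.4%), against 9.61% and 24.8% of all tested probes. Slide as a random block left 3 rising and 3 falling units. Without mutant replicates 1, 2 or 3 the counts of rising and falling units were 5 and 8, 4 and 6, and 29 and 31. Without wild-type replicates 1, 2 or 3 they were 5 and 7, 4 and 6, and 16 and 96. Rises made up 41.0% of the called units here, 63.6% with quantile normalization or the deposited table, 54.1% with median scaling, 76.9% with normexp background correction, 54.8% with the unmoderated test and 83.3% when the 75th percentile was taken over all probes. Over the whole array, probes called higher and lower numbered 173 and 315 as reported and 173 and 146 with quantile normalization. They numbered 194 and 189 with median scaling, 229 and 235 with normexp, and 125 and 38 with the percentile over all probes. Slide as a random block left 62 and 64, and leaving out wild-type replicate 3 gave 188 and 794. These count probes, whereas the member shares count units, and the differences were not tested.

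The centre of the members' distribution followed that of the array. The median log2 fold change was -0.33 over the 350 tested member probes and -0.27 over all 3341 tested probes, a difference of -0.06. Quantile normalization put the medians at 0.03 and -0.02, and the percentile over all probes put them at 0.29 and 0.35, so the sign of the median rested on the scaling while the members stayed within 0.07 of the array under these 3 scalings. Among the 202 member probes above background on all 6 arrays, the median was -0.05, 16 rose (7.92%) and 10 fell (4.95%). Of the 2356 such probes on the array, 5.73% rose and 8.57% fell. Of the 911 such probes of other lincRNA units, 7.14% rose and 6.81% fell, with a median of -0.09. Within the 202, 138 probes (68.3%) differed by less than 1.5-fold between the groups' means. The share was 75.4% among the 2356 such probes of the array and 67.2% among the 911 of other lincRNA units.

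**Figure D2:**
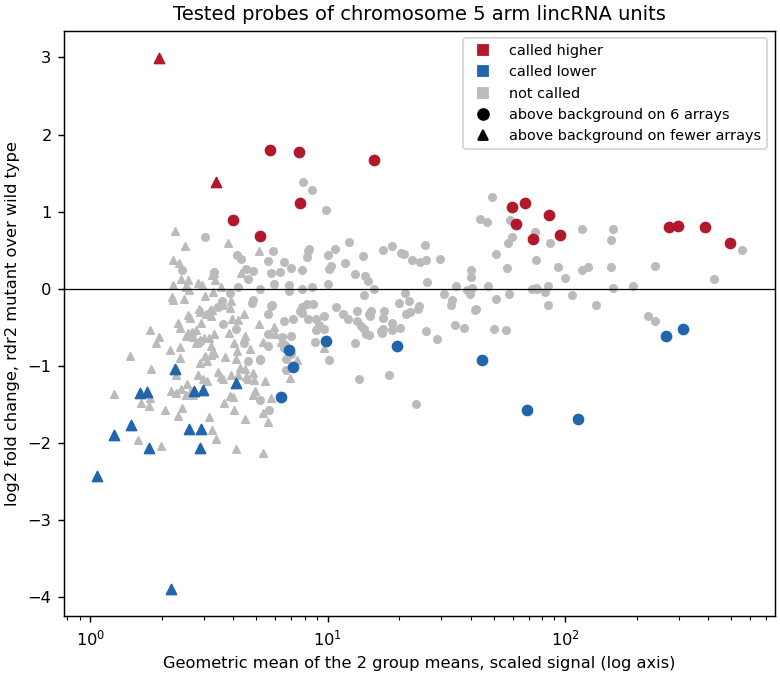
Log2 fold change of the 350 tested member probes, rdr2 mutant over wild type, against the geometric mean of both group means of scaled signal on a log axis; circles are probes above background on all 6 arrays and triangles on fewer. Falls gathered among dim probes measured on fewer arrays, while all but 2 of the 18 rising probes were above background on all 6.

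The largest rise was that of AT5TU052910, on the right arm between units starting at 15633520 and 15778554. Its called probe had a scaled signal of 5.64, 5.77 and 4.88 in the rdr2 mutant and 0.911, 0.620 and 0.554 in the wild type. The probe was well above background on every mutant array and on no wild-type array, and the groups lay far apart. It was at least 3.69-fold higher, a bound taken against, on each wild-type array, the higher of the lowest signal well above background and the probe's own signal. The fitted log2 fold change was 3.00 (SE 0.218, adjusted p = 0.00102). The other 2 probes of AT5TU052910, too dim to test, were each above background on 2 wild-type arrays and differed by 0.92 and 0.75 on the log2 scale, and 1 of these 2 probes had overlapping groups. The rise was called under all 19 alternatives run for it, adjusted p being at most 0.0371, but normexp, which draws dim signals together, put it at 0.36 on the log2 scale.

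A further 3 units rose over 3-fold from a low wild-type level. AT5TU085730 (right arm, between starts 24800999 and 24968794) had a scaled signal of 9.70, 8.76 and 13.7 in the rdr2 mutant and 2.53, 2.96 and 3.66 in the wild type. Its lowest mutant array was more than double its highest wild-type array, and the log2 fold change was 1.80 (SE 0.231, adjusted p = 0.00784). AT5TU078000 (right arm, between 22267784 and 22752875) stood at 11.98, 12.07 and 18.1 in the rdr2 mutant and 4.58, 4.40 and 3.28 in the wild type. Its log2 fold change was 1.77 (SE 0.231, adjusted p = 0.00820), but its other tested probes were at 0.60 and 0.23 with overlapping groups. AT5TU006260 (left arm, between 1731628 and 1899425) had 27.6, 33.0 and 22.8 in the rdr2 mutant and 8.82, 6.83 and 10.8 in the wild type. This was the single rising unit with both of at least 2 tested probes called, at log2 fold changes of 1.67 (SE 0.229, adjusted p = 0.00962) and 1.39 (adjusted p = 0.0255), and its remaining, dimmer probe differed by 1.21. A random block for slide kept the calls of AT5TU085730 (adjusted p = 0.0358) and AT5TU078000 (0.0226) and ended that of AT5TU006260 (0.0902). Normexp put these 3 rises at 0.37, 0.40 and 0.89 on the log2 scale.

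The other rises were near 2-fold or smaller, and several were of bright probes. AT5TU008860 (left arm, start 2614580) had a scaled signal of 83.1, 97.5 and 119 in the rdr2 mutant and 41.6, 41.2 and 55.7 in the wild type, which is 1.11 on the log2 scale (SE 0.200, adjusted p = 0.0217). AT5TU057880 (right arm, between 17080603 and 17083036) had 86.4, 96.7 and 76.2 in the rdr2 mutant and 36.7, 40.2 and 47.6 in the wild type. On these called probes every mutant array lay above every wild-type array. The other 2 probes of AT5TU057880, too dim to test, differed by 0.47 and -0.08 with overlapping groups. The second tested probe of AT5TU008860 had 2.66, 2.85 and 9.45 in the rdr2 mutant and 3.51, 4.90 and 2.71 in the wild type, with overlapping groups (0.21, adjusted p = 0.813). The remaining probe of AT5TU008860 was well above background on no array. AT5TU020230 (left arm, between 5376636 and 5892437) had 133, 128 and 97.5 in the rdr2 mutant and 61.8, 57.6 and 63.4 in the wild type, and its other 2 probes, at 0.89 and 0.74 on the log2 scale, also had groups that did not overlap (adjusted p = 0.0638 and 0.0996). AT5TU050820 was placed just beyond 15 Mb, between starts 14896291 and 15413713, so its place on the arm rests on its unit number. It rose to 10.6, 12.1 and 10.9 in the rdr2 mutant, against 4.34, 5.199 and 6.14 in the wild type. Its second tested probe pointed the other way, at -0.89 (adjusted p = 0.486). The probes of this unit therefore disagreed in sign, with 1 of them called.

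Of the brightest rising probes, that of AT5TU029600 had a scaled signal of 406, 424 and 360 in the rdr2 mutant and 210, 206 and 263 in the wild type, but its second tested probe stood at -0.03. AT5TU090640 had 359, 396 and 324 in the rdr2 mutant and 178, 207 and 237 in the wild type, on its single tested probe. These rises were 1.76-fold and 1.74-fold. AT5TU063590 (72.0 to 89.9 in the rdr2 mutant, 44.3 to 48.9 in the wild type) and AT5TU067110 (4.33 to 6.86 in the rdr2 mutant, 2.76 to 3.17 in the wild type) rose by 0.84 and 0.89 on the log2 scale. Outside the 12 largest, and chosen after their values were seen, AT5TU017660, AT5TU021390, AT5TU007450 and AT5TU068220 rose by 0.80, 0.69, 0.64 and 0.60. AT5TU007450 was called on 2 of 3 probes, and all 3 lay between 0.64 and 0.70. AT5TU068220 had its other tested probes at 0.22 and -1.12, and its mean over the 3 probes was below 0. With slide as a random block, 3 of the 16 rises were called, AT5TU052910, AT5TU078000 and AT5TU085730.

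The largest fall was that of AT5TU014740, on the left arm at start 4202199. The called probe had a scaled signal of 0.660, 0.669 and 0.390 in the rdr2 mutant and 7.15, 8.47 and 9.44 in the wild type. It was well above background on every wild-type array and on no mutant array. The fall was at least 3.95-fold (fitted log2 fold change -3.90, SE 0.257, adjusted p = 0.000676). A second probe, above background on 2 wild-type arrays, differed by -1.62 with overlapping groups, and the remaining probe was below background on all arrays. The call passed under all 19 alternatives, with adjusted p of at most 0.0379, while normexp put the difference at -0.34.

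AT5TU018610 was the clearest fall of a well-expressed unit. Placed on the left arm between starts 5216102 and 5288906, it had a scaled signal of 39.0, 37.2 and 43.4 in the rdr2 mutant and 106, 122 and 128 in the wild type on the probe with the smallest p. All arrays were well above background, and the groups lay apart by more than their own spread at -1.57 on the log2 scale (SE 0.134, adjusted p = 0.00200). Its second tested probe, at 64.1 in the rdr2 mutant and 201 in the wild type on average, stood at -1.69 (adjusted p = 0.00974). This was the single falling unit with all of at least 2 tested probes called. Slide as a random block kept the call (adjusted p = 0.0196). It was lost with the 75th percentile over all probes (-0.95, adjusted p = 0.406), with no filter (0.0955) and when arrays sharing a slide were averaged (0.0956).

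**Figure D3:**
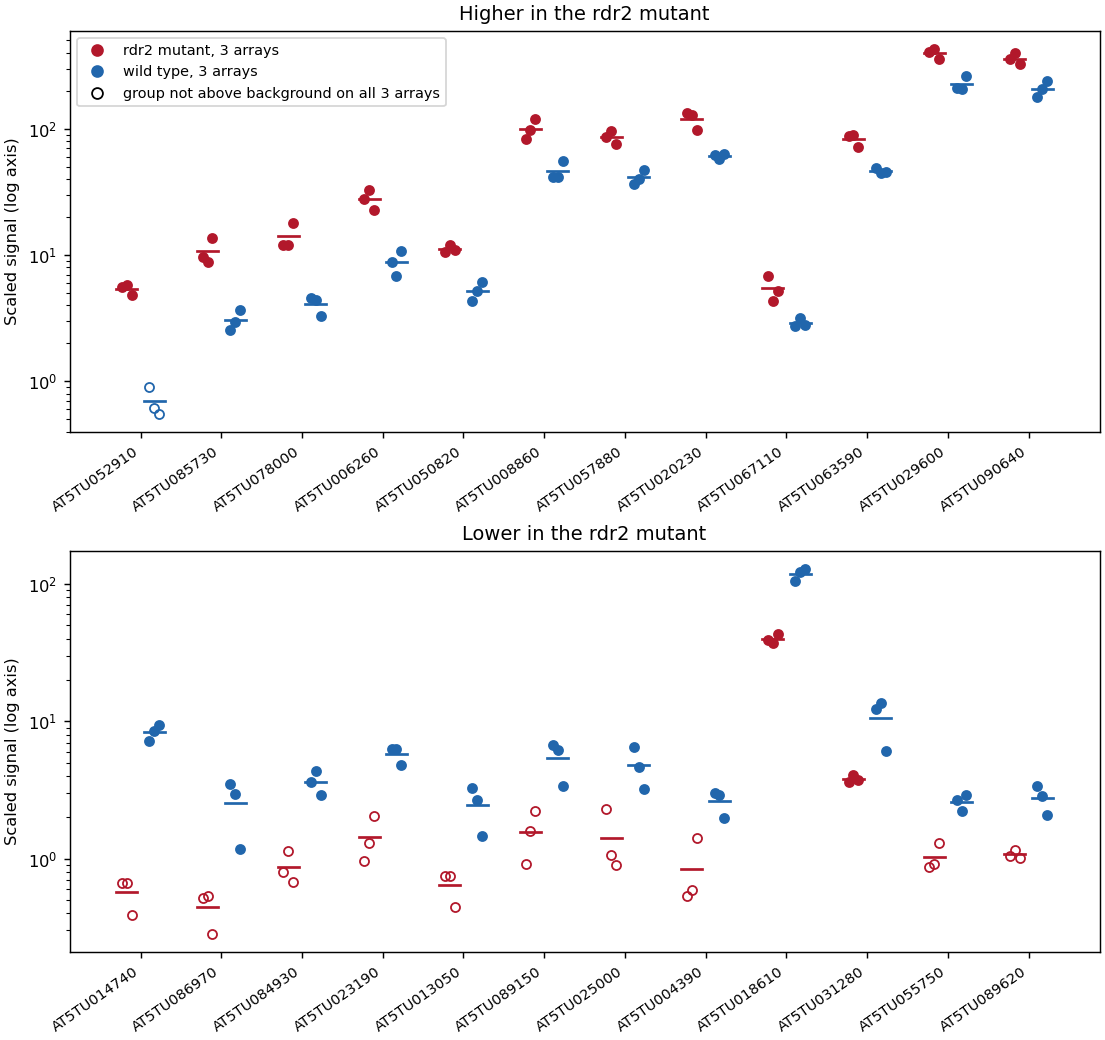
Scaled signal per array, on log axes, of the 12 largest rises (top) and 12 largest falls (bottom) among called units; rdr2 mutant points in red stand left of wild-type points in blue, lines are group means, and open points mark groups not above background on all 3 arrays. Each unit is shown by its probe with the smallest p. On these probes the mutant group was not fully above background in 10 of the 12 falls, and both groups were in 11 of the 12 rises.

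Most other large falls ended at background in the mutant. AT5TU084930 (right arm, between starts 24385195 and 24800999) had 0.796, 1.13 and 0.671 in the rdr2 mutant and 3.59, 4.31 and 2.89 in the wild type, a fall of at least 1.69-fold (fitted log2 fold change -2.07, SE 0.254, adjusted p = 0.00700). AT5TU023190 (left arm, between 6158888 and 6592762) had 0.961, 1.304 and 2.05 in the rdr2 mutant and 6.26, 6.29 and 4.81 in the wild type. It was above background on 1 mutant array, at -2.07 on the log2 scale (SE 0.305, adjusted p = 0.0118). AT5TU025000 was above background on no mutant array and at least 2.18-fold lower. The called probes of AT5TU089620, AT5TU055750, AT5TU013050 and AT5TU086970 were also above background on no mutant array. Their bounds were 1.29-fold, 1.22-fold, 1.11-fold and 1.097-fold, although fitted log2 fold changes were -1.35, -1.36, -1.90 and -2.44. Within AT5TU086970 a bright probe did not follow: its group means were 273 in the rdr2 mutant and 207 in the wild type (0.30, adjusted p = 0.565). Slide as a random block ended the calls of AT5TU084930 (adjusted p = 0.0626) and AT5TU023190 (0.0763). It also ended those of the other units named in this paragraph.

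Among the 12 largest falls, wild-type replicate 3, the array with fewest member probes above background in its group, was the lowest wild-type array in 9. AT5TU031280 (left arm, start 8789659) had 3.62, 4.05 and 3.72 in the rdr2 mutant and 12.3, 13.5 and 6.06 in the wild type. AT5TU089150 had 0.908, 1.58 and 2.20 in the rdr2 mutant and 6.72, 6.18 and 3.40 in the wild type, and AT5TU004390 had 0.533, 0.586 and 1.41 in the rdr2 mutant and 3.01, 2.91 and 1.98 in the wild type. Wild-type replicate 3 was the lowest wild-type array in all 3, yet above every mutant array. Of the 12 falls, 10 lost their calls with normexp, at -0.07 to -0.22 on the log2 scale; AT5TU014740 and AT5TU018610 kept theirs. The part of array differences in intensity and detection in the dim falls was not tested.

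The falls outside the 12 largest were named after their values were seen. AT5TU057660 (right arm, between 17034563 and 17049732) had 2.63, 2.43 and 3.00 in the rdr2 mutant and 6.36, 6.05 and 6.41 in the wild type. Its called probe was well above background on all wild-type arrays and 1 mutant array. The groups did not overlap, the unit's 3 probes stood between -1.18 and -1.67, and the adjusted p of the called probe was 0.00412. With slide as a random block AT5TU057660 was called at 0.0328, but quantile normalization (-0.55, adjusted p = 0.282) and normexp (-0.09, adjusted p = 0.357) ended the call. AT5TU061000 (right arm, between 17826670 and 17987156) had 30.3, 32.03 and 34.97 in the rdr2 mutant and 61.2, 62.9 and 60.1 in the wild type, 1.90-fold lower (adjusted p = 0.00727; 0.0560 with a block for slide). AT5TU080700 had 213, 214 and 215 in the rdr2 mutant and 351, 336 and 299 in the wild type. AT5TU003890 had 271, 253 and 259 in the rdr2 mutant and 379, 399 and 345 in the wild type. For both bright units the groups did not overlap at log2 fold changes of -0.62 and -0.52, and with the percentile over all probes they stood at 0.00402 and 0.10, so their direction depended on the scaling. The remaining 7 falls ranged from -0.67 to -1.32. With slide as a random block, 3 of the 23 falls were called, AT5TU014740, AT5TU018610 and AT5TU057660.

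The called units differed in how many arrays stood behind them. Each unit is counted here by its probe with the smallest p, and its other probes can differ. Of 16 rising units, 15 were above background on all 6 arrays and 1 in the mutant alone. Of 23 falling units, 9 were above background on all 6 arrays, 7 on 1 mutant array and 7 on no mutant array. Among the last 7, AT5TU086970 had another probe above background on all 6 arrays. Other probes of AT5TU052910, the rise counted in the mutant alone, were above background on 2 wild-type arrays. Since a probe was tested on the group where it was measured, a probe measured in 1 group could be called in 1 direction alone. By probe, 16 of the 18 rises and 10 of the 24 falls were above background on all 6 arrays, against 135 of 173 and 202 of 315 over the array. Fitted differences reached 2-fold in 7 rising units, of which 6 were above background on all 6 arrays and 1 had a bound over 2-fold. They did so in 17 falling units, of which 3 were above background on all 6 arrays, 7 on 1 mutant array and 7 on no mutant array, and 2 of the last 7 had a bound over 2-fold. By probes with groups that do not overlap, 47 of 350 were higher and 80 lower in the mutant, against 11.7% and 27.9% of all tested probes.

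Of the tested units, 16.9% were called. Over the array, 5.97% of the 1860 tested transcripts were called higher and 11.7% lower. Of 28 pairs of tested units with consecutive numbers, 13 pairs had the same sign and 1 pair had both units called. That pair, AT5TU031770 and AT5TU031780, lay on the left arm between starts 8825830 and 9001659. AT5TU031770 had a scaled signal of 7.49, 7.93 and 7.83 in the rdr2 mutant and 11.96, 11.2 and 14.1 in the wild type (-0.67 on the log2 scale, SE 0.133, adjusted p = 0.0287). AT5TU031780 had 4.89, 5.40 and 5.28 in the rdr2 mutant and 8.05, 10.1 and 9.02 in the wild type (-0.80, SE 0.134, adjusted p = 0.0175). Its other probes were at -0.59 and -0.55 without passing, and both calls were lost with the slide block (adjusted p = 0.140 and 0.215). Whether the pair is 1 transcript or 2 was not tested. The pair counts stand without a like count for the rest of the array.

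The called units were spread over both arms. On the left arm 7 of 79 tested units rose and 12 fell (8.86% and 15.2%), and on the right arm 9 of 152 rose and 11 fell (5.92% and 7.24%), a difference that was not tested. Over the array, 5.97% of the 1860 tested transcripts rose and 11.7% fell. In windows of 3 Mb, the share called ran from 6 of 15 tested units at 0 to 3 Mb, through 7 of 34 and 6 of 30 on the rest of the left arm, to 6 of 44, 4 of 33, 2 of 31 and 8 of 44 from 15 to 27 Mb. Each window held 15 to 44 tested units, and the differences between windows were not tested. The window medians lay between -0.22 and -0.73 with no steady trend. Just inside the left limit of 9 Mb, AT5TU031800 stood at 0.30, and just outside it AT5TU032420 stood at 0.41. At the right limit of 15 Mb, AT5TU050610 inside stood at -0.61 and AT5TU049740 outside at 0.38.

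**Figure D4:**
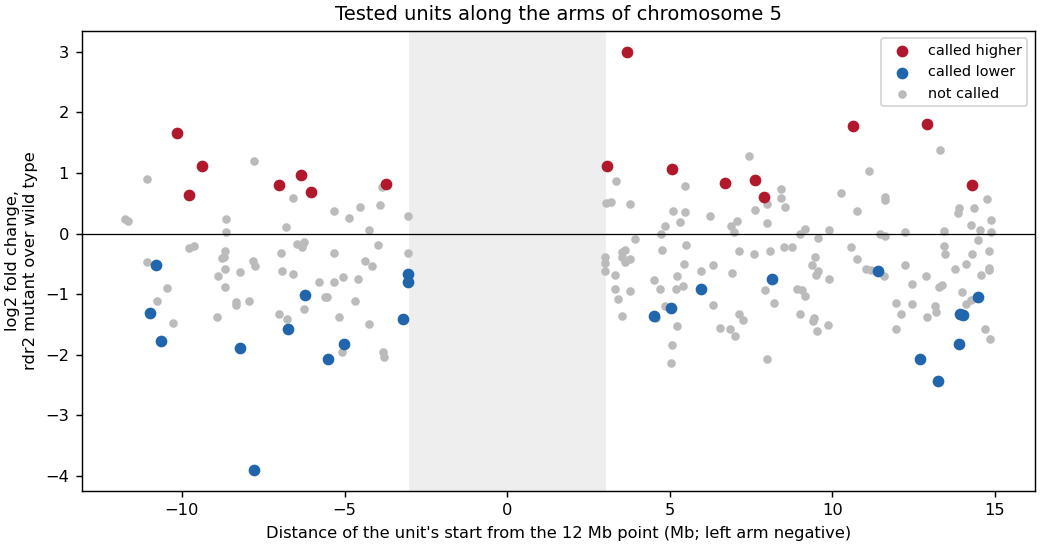
Log2 fold change of each of the 231 tested units, by its probe with the smallest p, against the distance of its start from the 12 Mb point in Mb; the grey band is the stretch within 3 Mb, which holds no member. Red (16 units) and blue (23 units) points are called higher and lower and occur on both arms.

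Probes of a unit gave a check within the array, though they share the same RNA. Of 80 units with at least 2 tested probes, 55 had all probes on the same side of 0, and the median gap between the highest and lowest probe was 0.37 on the log2 scale. Of 22 called units with at least 2 tested probes, 18 had every probe of 1 sign, 2 had every tested probe called, and 0 had probes called in opposite directions. The other 17 called units had 1 tested probe.

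Under the reported scaling, some units had narrow intervals around similar levels in both genotypes. AT5TU074240 (right arm, between 21159575 and 21692758) had a scaled signal of 57.6, 49.7 and 63.2 in the rdr2 mutant and 54.3, 62.2 and 61.9 in the wild type on 1 of its 3 probes. Its probes stood at 0.03, -0.01 and -0.07, and no 95% interval reached beyond 0.44 on the log2 scale. For AT5TU090570 (right arm, between 26252209 and 26349716) and AT5TU011450 (left arm, between 3313602 and 3564582), each with 3 tested probes, the widest bounds were 0.51 and 0.54. On 1 probe of AT5TU011450, at 0.24 (adjusted p = 0.202), every mutant array lay above every wild-type array. Its other probes, at -0.08 and -0.04, had overlapping groups. These levels depend on how arrays are scaled. When all probes set the 75th percentile, the probes with the smallest p of AT5TU074240, AT5TU090570 and AT5TU011450 stood at 0.55, 0.77 and 0.86, with adjusted p of 0.666, 0.549 and 0.468. Under the reported scaling, 49 units without a called probe had intervals within 2-fold on every tested probe, out of 192 tested units not called. For the other uncalled units, at least 1 tested probe had an interval that reached 2-fold.

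**Figure D5:**
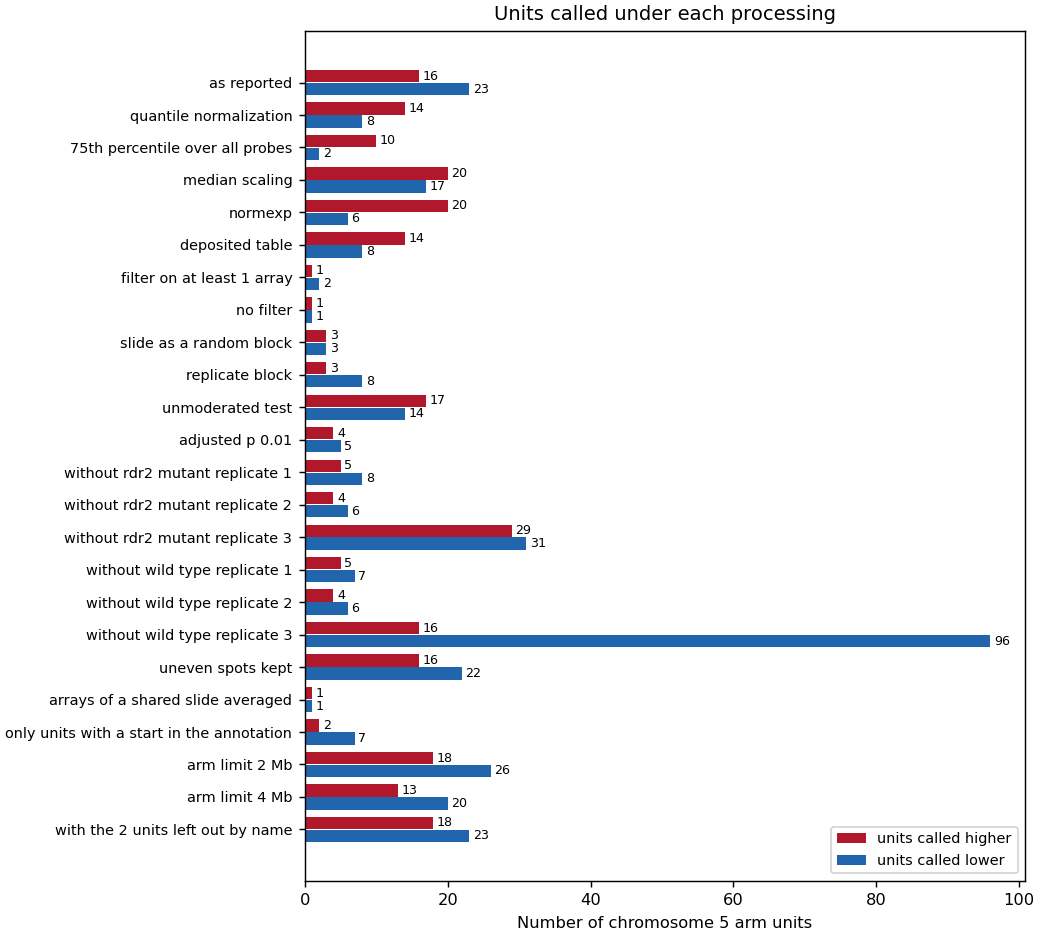
Number of chromosome 5 arm units called higher (red) and lower (blue) as reported, under 19 alternative fits and under 4 other definitions of the members. The count of falls ran from 1 to 96 and that of rises from 1 to 29, depending on the setting.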

How the data were processed

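Single-colour arrays, 3 per genotype, were analysed without their 536 control spots. Per the file headers, Agilent Feature Extraction was version 10.7.3.1 for mutant replicate 3 and 10.5.1.1 for the other arrays, and the deposited processed signal is a background-subtracted intensity. The authors' deposited value table holds log2 values; at least 99.86% of those on each array lay within 0.1 of processed signals floored at 1, put on the log2 scale and then quantile normalized, and the column medians were 0.95. Headers of 5 arrays carry a genomic build entry for the grid; whether the starts use it is not given.

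Processed signals were divided by each array's 75th percentile over 2356 probes. Spots marked uneven (2 to 30 per array) were left out; none was on a tested member probe. Tests used limma 3.58.1 in R 4.3.3 (lmFit, eBayes, group as sole term, two-sided) with Benjamini-Hochberg adjustment over 3341 probes and a threshold of 0.05. They were checked on simulated data with independent noise on each array and no slide effect. Error rates under shared slides were therefore not checked. Normexp used median spot and background signals with an offset of 50. Figures used matplotlib 3.10.9. Members, lists and naming rule were chosen with earlier results of these data known. Named were the 12 largest called changes each way without overlap between groups, units with all of 2 or more tested probes called, called neighbours, the 3 units with narrowest intervals and those beside the arm limits. The labels number the replicates without saying that plants were grown separately, so p-values measure the spread between these samples, which may be technical.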

Additional observations from a re-analysis of the deposited data

How the results depend on the processing

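Of the 39 called units, AT5TU052910 and AT5TU014740 kept their calls under all 19 alternative fits, and RDR2 was called under each (largest adjusted p 0.0295). The counts of units rising and falling were 16 and 23 as reported, and 18 and 24 by probe. They were 14 and 8 units (17 and 9 probes) with quantile normalization and the same from the deposited values, 10 and 2 (11 and 2) when all probes set the 75th percentile, 20 and 6 (26 and 9) with normexp, and 17 and 14 (18 and 15) with the unmoderated test. They were 1 and 2 (1 and 2) when 1 array above background sufficed, 1 and 1 with no filter, and 4 and 5 (4 and 6) at adjusted p 0.01. Slide as a random block (within-slide correlation 0.770) gave 3 and 3, and the arrays of a shared slide averaged, chosen after seeing the data, gave 1 and 1. Units with a start in the annotation held 2 rises and 7 falls (3 and 7 probes). Limits of 2 and 4 Mb and median scaling moved counts by under 1.5 times, as did, chosen after seeing the data, keeping uneven spots or adding back the 2 units set aside. Leaving out 1 array gave 4 to 29 rising and 6 to 96 falling units (4 to 37 and 6 to 100 probes), with falls highest without wild-type replicate 3 and rises highest without mutant replicate 3. RDR2 ranged from -2.76 to -2.62. AT5TU003890 (0.10) and AT5TU080700 (0.00402) turned with the 75th percentile over all probes; apart from the construction of each setting, the cause was not tested. The replicate block gave 3 and 8 units (3 and 8 probes). Same-numbered arrays showed no shared deviation (correlations -0.06, 0.02 and -0.02), and arrays of unlike number ranged from -0.11 to 0.10. With 3 arrays per group this cannot settle whether the numbers pair the samples. Signal over background limits what can be said of the 552 members too dim to test.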
